A study of Mus musculus with 4 samples.

Results

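Spermatogonia are the mitotic germ cells at the base of the seminiferous tubule, and 10 genes that mark their stem, progenitor and differentiating states are described here across 4 testis libraries. The genes were chosen by symbol. Zbtb16, Gfra1, Id4, Sall4 and Uchl1 stand for undifferentiated spermatogonia, and Kit, Stra8, Sohlh1 and Sohlh2 for differentiation and entry into meiosis. Dmrt1, whose protein holds back meiosis in spermatogonia, was placed with the genes of differentiation. All 10 were found among the 22552 symbols of the tables, each on 1 row. The libraries came from testes of adult male mice on a DBA/C57 F1 background, 2 of wild-type genotype (WT) and 2 of the Fam46c knockout (KO). FAM46C belongs to the noncanonical poly(A) polymerases, which lengthen the adenosine tail of RNA, and the study asked which testis transcripts depend on it. The labels do not give the mutated part of Fam46c, nor whether libraries with the same genotype are from separate animals. All p-values thus reflect only spread between libraries, and this spread may be technical. The test, limma, draws much of each gene's spread from all tested genes (2 residual and 9.48 prior degrees of freedom). An interval can therefore be narrower than the gene's own libraries would give.

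A small pool of undifferentiated spermatogonia renews itself under the ligand GDNF, which Sertoli and peritubular cells make and which signals through GFRA1 and the receptor tyrosine kinase RET. Retinoic acid then moves these cells into differentiation, when they gain the receptor KIT, and later induces STRA8, which is needed for entry into meiosis. In whole adult testis most RNA comes from spermatocytes and spermatids, so transcripts of the few spermatogonia are diluted. In such bulk samples, fewer cells of a type and less RNA per cell cannot be told apart.

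Levels are given in FPKM, fragments scaled to transcript length and to the mapped fragments of the library, as the authors deposited them. Total FPKM was 489702 to 528756 per library. The steps that whole fragments leave in low values placed WT replicate 1, KO replicate 1 and KO replicate 2 at 0.901, 0.781 and 0.905 of the depth of WT replicate 2. Transcript lengths of single-transcript genes put the latter at roughly 21100000 to 23500000 fragments. The targeted transcript, Fam46c, stood at 236 and 134 FPKM across WT, compared with 131 and 130 across KO (limma log2 fold change -0.45, SE 0.21, adjusted p = 1). Without WT replicate 1 the Fam46c difference was -0.04. Since the mutated part is not known, this level does not check the labels. Spermatocyte markers summed to 4040 to 4300 FPKM, Sertoli markers to 664 to 872 FPKM, and 0 of the 13 spermatocyte or 12 spermatid markers were listed at 0. Ldhc made up most of the spermatocyte sum, at 2500 to 2710 FPKM.

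Promoter sequence was available from RefSeq (GRCm38.p6) for 7 of the 10 genes, namely Gfra1, Id4, Kit, Sohlh1, Sohlh2, Stra8 and Uchl1. This build is not mm9, the build named with the FPKM values, and the windows are shown for context only. Stra8 and Sohlh1 are printed because they had the widest spread across the 4 libraries, 1.72-fold and 2.0-fold from lowest to highest, and because they alone among the 7 windows hold AGGTCA. Each window is the 250 bases before the annotated start, on the strand of the gene. Capitals mark AGGTCA, the half-site letters read by retinoic acid receptors, and CANNTG, the E-box read by basic helix-loop-helix factors such as SOHLH1 and SOHLH2. Both motifs were searched on both strands.
Stra8, chr6:34920698-34920947, plus strand: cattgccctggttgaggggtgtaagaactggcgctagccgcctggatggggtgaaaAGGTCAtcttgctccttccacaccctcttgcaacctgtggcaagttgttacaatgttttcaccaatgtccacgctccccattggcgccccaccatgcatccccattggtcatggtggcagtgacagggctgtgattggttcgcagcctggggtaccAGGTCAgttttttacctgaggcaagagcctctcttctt
Sohlh1, chr2:25847249-25847498, minus strand: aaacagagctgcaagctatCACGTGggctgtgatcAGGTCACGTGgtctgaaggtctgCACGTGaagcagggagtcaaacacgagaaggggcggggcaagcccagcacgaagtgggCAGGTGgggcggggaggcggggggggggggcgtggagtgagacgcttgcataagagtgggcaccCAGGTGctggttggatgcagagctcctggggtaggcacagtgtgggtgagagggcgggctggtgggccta

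The Stra8 window holds AGGTCA at 194 and 38 bases before the start and no CANNTG. The Sohlh1 window holds 5 E-boxes, of which the 3 farthest from the start read CACGTG and the other two read CAGGTG. It also holds 1 AGGTCA, whose last 2 letters overlap the second E-box. Among the other windows, Gfra1 holds 3 E-boxes and Sohlh2 holds 1, while Kit, Id4 and Uchl1 hold neither motif. Of 32851 RefSeq promoter windows of this length, 66.2% hold CANNTG and 1.15% hold it at least 5 times, and 14.0% hold AGGTCA and 1.36% at least 2 times. A match is a description of letters and not of a bound site.

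None of the 10 spermatogonial genes showed a difference between KO and WT testes that was larger than the spread of the libraries. The 10 genes spanned levels from 0.473 to 45.5 FPKM, and the WT and KO values of every one of them overlapped. For all 10, the gap between the 2 libraries of at least 1 genotype was larger than the gap between the genotype means, on the scale of log2(FPKM + 1). With 2 libraries against 2, this follows from the overlap and is not a separate result. The 7 genes with a mean of at least 1 FPKM were tested in limma with Benjamini-Hochberg adjustment over 12258 genes. Limma called 0 of the 7 at an adjusted p under 0.05, against 0.114% of all tested genes. Unadjusted, 0 had a p under 0.05, against 2.02% of all tested genes. Groups of 2 libraries did not overlap in 20.1% of all tested genes, and in 0 of these 7.

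**Figure D1:**
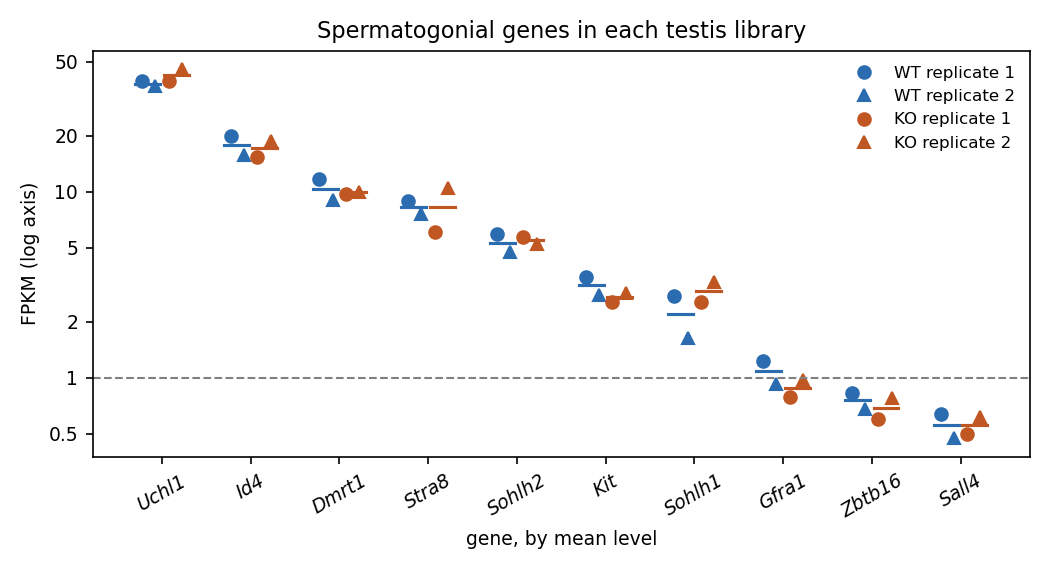
FPKM on a log axis of the 10 spermatogonial genes in each library, with WT in blue, KO in orange, circles for replicate 1, triangles for replicate 2 and short lines for the group means (n = 2). The values of the genotypes overlap for every gene, and Gfra1, Zbtb16 and Sall4 lie near or under the dashed line at 1 FPKM.

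Gfra1, Zbtb16 and Sall4 were the lowest of the 10 genes. Gfra1 encodes the GDNF-binding co-receptor on which stem cell renewal depends. It stood at 1.23 FPKM in WT replicate 1, 0.929 in WT replicate 2, 0.782 in KO replicate 1 and 0.965 in KO replicate 2. The WT libraries held both the highest value and one below KO replicate 2, so the groups overlapped. Zbtb16 encodes PLZF, a zinc finger repressor that keeps spermatogonia undifferentiated. It stood at 0.828 and 0.681 FPKM across WT, compared with 0.597 and 0.777 across KO. Sall4, a zinc finger factor of undifferentiated and early differentiating spermatogonia, was at 0.635 and 0.473 FPKM across WT, compared with 0.495 and 0.614 across KO. Its genotype means were both 0.554 FPKM, and each genotype had 1 library on either side.

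These 3 genes, Gfra1, Zbtb16 and Sall4, had means under 1 FPKM over the 4 libraries (0.977, 0.720 and 0.554) and were not tested. Their differences, KO minus WT in log2(FPKM + 1), were -0.15, -0.06 and 0.00. Only WT replicate 1 had a value above 1 FPKM, for Gfra1. With the minimum lowered to a mean of 0.1 FPKM, which tests 16305 genes, limma gave an adjusted p of 1 for each of them. Taking the longest coding transcript of GENCODE M21 for each, Sall4 rested on about 41 to 61 fragments per library, Zbtb16 on 50 to 80 and Gfra1 on 60 to 109. Counting alone gives errors of up to 15.5%, 14.1% and 12.9%, and the WT libraries differed 1.34-fold, 1.22-fold and 1.33-fold.

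Id4 and Uchl1, the other two genes of undifferentiated cells, were far higher. Id4 encodes a helix-loop-helix inhibitor without a DNA-binding region. It marks stem cells in mouse testis but is also made by Sertoli or other somatic cells. It was at 19.8 and 15.8 FPKM across WT, compared with 15.4 and 18.8 across KO, so 1 library of each genotype was high and 1 low. KO differed from WT by -0.05 in log2 (limma, SE 0.16, adjusted p = 1), with a 95% interval from 0.757-fold to 1.23-fold of FPKM + 1. Uchl1 encodes a ubiquitin hydrolase that is abundant in spermatogonia and also in neurons. It was at 39.4 and 36.9 FPKM across WT, compared with 39.2 and 45.5 across KO. KO replicate 2 stood above the other 3 libraries, which lay close together. KO differed from WT by 0.14 in log2 (limma, SE 0.14, adjusted p = 1), with an interval from 0.901-fold to 1.36-fold.

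Among the genes of differentiation, Kit and its regulators were tested in full. Kit encodes the receptor that differentiating spermatogonia need to survive and divide, and Leydig and mast cells make it too. It was at 3.48 and 2.79 FPKM across WT, compared with 2.56 and 2.86 across KO. The highest library was WT replicate 1, and WT replicate 2 lay between the KO libraries. KO differed from WT by -0.15 in log2 (limma, SE 0.16, adjusted p = 1), with an interval from 0.703-fold to 1.15-fold of FPKM + 1. The Leydig markers summed to 1320 and 1440 FPKM in WT and to 681 and 355 in KO, and 0 of the 10 were listed at 0. This difference was carried by Insl3: the other 9 summed to 222 and 308 FPKM in WT and to 302 and 166 in KO, so that the genotypes overlapped. The mast cell markers Mcpt4 and Fcer1a were listed at 0 in all 4 libraries, Tpsb2 at 0 in 3 of them, and Cpa3 stayed under 0.27 FPKM. The part of these cells in the Kit value was not tested.

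Sohlh1 and Sohlh2 encode basic helix-loop-helix factors that act together in spermatogonia as they begin to differentiate and that raise Kit in mice. Sohlh1 was at 2.76 and 1.64 FPKM across WT, compared with 2.56 and 3.28 across KO. WT replicate 2 was the low library and KO replicate 2 the high one, while the remaining pair were alike. Its log2 fold change of 0.31 (SE 0.20) was the largest in size of the 7 tested genes, with an unadjusted p of 0.141 and a limma adjusted p of 1. It rested on WT replicate 2: leaving it out gave 0.06, and leaving out WT replicate 1 gave 0.56 (limma unadjusted p = 0.0197, adjusted p = 1). Sohlh1 has a short transcript and rested on about 45 to 81 fragments, a counting error of up to 15.0%. Its partner Sohlh2 was at 5.90 and 4.73 FPKM across WT, compared with 5.72 and 5.24 across KO. Both KO values lay between the WT values. KO differed from WT by 0.04 in log2 (limma, SE 0.16, adjusted p = 1), with an interval from 0.808-fold to 1.31-fold of FPKM + 1. Sohlh2 exceeded Sohlh1 in every library, 2.14-fold and 2.88-fold in WT and 2.24-fold and 1.60-fold in KO.

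Dmrt1 encodes a DM-domain factor that holds back meiosis in spermatogonia and is also made by Sertoli cells. It was at 11.7 and 8.96 FPKM across WT, compared with 9.75 and 10.02 across KO, with both KO values between the WT values. KO differed from WT by -0.05 in log2 (limma, SE 0.16, adjusted p = 1), with an interval from 0.761-fold to 1.23-fold of FPKM + 1. The Sertoli markers, 17 of them in the tables and 0 listed at 0, summed to 872 and 664 FPKM in WT and to 734 and 707 in KO, so they were highest in WT replicate 1, where Dmrt1 was also highest. The part of Sertoli cells in the Dmrt1 value was not tested.

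Stra8, the retinoic acid response gene whose protein starts the meiotic programme, was at 8.94 and 7.60 FPKM across WT, compared with 6.07 and 10.5 across KO. The KO libraries were the lowest and the highest of the 4, and both WT libraries lay between them. The genotype means were both 8.27 FPKM (SD 0.945 in WT and 3.10 in KO, n = 2 each). KO differed from WT by -0.04 in log2 (limma, SE 0.21, adjusted p = 1), with an interval from 0.709-fold to 1.34-fold of FPKM + 1. At about 181 to 360 fragments per library the estimated counting error of a single library was at most 7.44%. The KO libraries differed 1.72-fold, and the part of counting error in this difference was not tested.

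**Figure D2:**
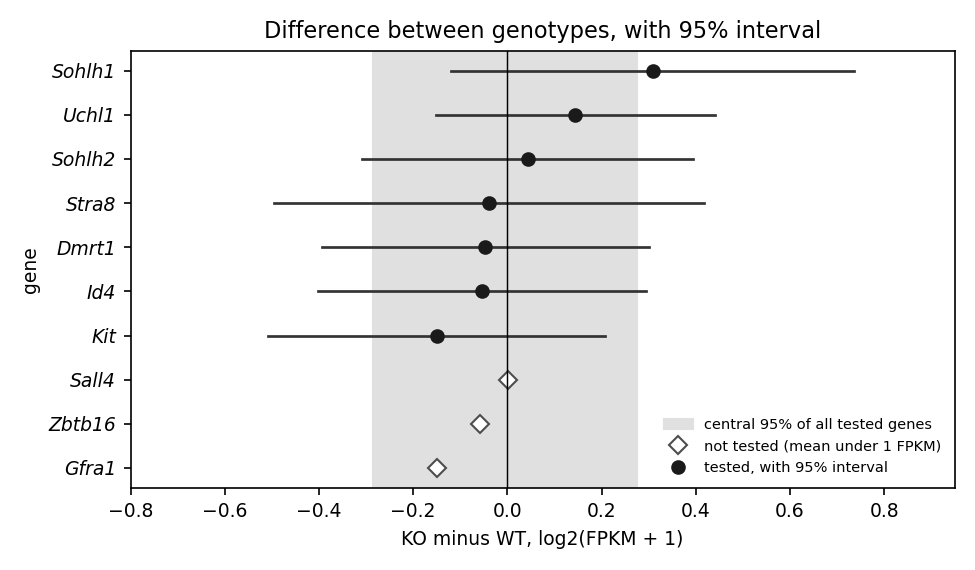
Difference between KO and WT on the scale of log2(FPKM + 1), with 95% intervals from limma for the 7 tested genes (filled circles) and no interval for the 3 that were not tested (open diamonds). Every interval crosses 0, and Sohlh1 at 0.31 is the 1 gene outside the grey band from -0.29 to 0.28 that holds the central 95% of 12258 tested genes.

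Of the 7 tested genes, 3 had a positive and 4 a negative log2 fold change, with a median of -0.04 against -0.01 over all tested genes. The intervals of the 7, all in fold of FPKM + 1, reached from 0.703-fold for Kit to 1.67-fold for Sohlh1. Changes within each interval remain compatible with these values. Kit and Sohlh1 were the lowest of the 7, and this scale understates changes of low genes in FPKM itself. With a pseudocount of 0.1 in place of 1, the log2 fold change of Sohlh1 was 0.43 in place of 0.31. With 2 libraries against 2, an exact two-sided permutation test of a single gene cannot go below p = 0.333.

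The order of levels was much the same in the 4 libraries. Uchl1 exceeded Id4 2.31-fold on average, Id4 exceeded Dmrt1 1.72-fold, Stra8 exceeded Sohlh2 1.53-fold, Sohlh2 exceeded Kit 1.85-fold and Sohlh1 exceeded Gfra1 2.62-fold, and the ranges of these pairs did not overlap. Dmrt1 was above Stra8, and Kit above Sohlh1, in 3 of 4 libraries each, with overlapping ranges. Gfra1 was above Zbtb16 and Zbtb16 above Sall4 within every library, although the ranges overlapped between libraries. Uchl1 stood at the 88.1th percentile and Sall4 at the 29.1th of all symbols above 0.

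The balance between the stem and differentiation genes was compared within each library. The 5 genes of undifferentiated cells summed to 1.89 and 2.13 times the 5 genes of differentiation in WT and to 2.11 and 2.09 times in KO. Uchl1 made up most of the first sum, and with it both KO ratios fell between the WT ratios. Dmrt1, whose protein holds back meiosis, was counted in the second sum. Without Uchl1 and Dmrt1, the highest gene of each sum, the ratio was 1.07 and 1.07 for the WT pair and 1.02 and 0.968 for the KO pair, so both KO ratios then lay below both WT ratios. The KO minus WT difference thus turned from 0.07 to -0.10 in log2, and was not tested. For comparison, groups of 2 libraries did not overlap in 20.1% of all tested genes. Id4 made up most of the remaining first sum, 19.8 of 22.5 FPKM in WT replicate 1, so Gfra1, Zbtb16 and Sall4 weighed little. The ratios therefore describe mainly Uchl1 and Id4 and not the stem genes as a group. Id4 and Gfra1 are also made by Sertoli or other somatic cells, and the part of these cells was not tested. Zbtb16, which represses Kit in mouse spermatogonia, stood to Kit in ratios of 0.238 and 0.244 for the WT pair and 0.233 and 0.271 for the KO pair.

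Most of the 10 genes shared a direction of difference between libraries of the same genotype. WT replicate 1 exceeded WT replicate 2 in 10 of 10 genes, against 65.3% of all tested genes. KO replicate 2 exceeded KO replicate 1 in 9 of 10, the exception being Sohlh2, against 46.3% of all tested genes. In 9 of 10 genes the 2 highest libraries were WT replicate 1 and KO replicate 2, a pattern that 25.7% of all tested genes had. Some of these orders were near ties: Uchl1 had 39.4 FPKM in WT replicate 1 and 39.2 in KO replicate 1. Kit had 2.86 in KO replicate 2 and 2.79 in WT replicate 2, and Gfra1 0.965 and 0.929. The estimated counting errors in KO replicate 2 were 5.91% for Kit and 10.8% for Gfra1. Among the 7 tested spermatogonial genes the count was 6. Of the other genes of undifferentiated spermatogonia 4 of 17 tested had it, and of the other genes of differentiating spermatogonia and meiotic entry 7 of 16. This pattern was picked from the values of the same genes, and its other scalings were also chosen after the data were seen. The shares thus describe the pattern and do not test it. The 10 genes share the same 4 libraries and are not replicates. After median scaling the count was 8 of 10 against 20.3%, and after total scaling 9 of 10 against 34.7%. Summed spermatid markers, which make up most of the FPKM of the marker lists, ran the other way, at 50700 and 65300 FPKM across WT, compared with 72100 and 58200 across KO. Prm1, Prm2, Tnp1 and Tnp2 made up most of this sum, at 15900, 12300, 9510 and 7320 FPKM in WT replicate 1. The median deviation of the 12 spermatid markers was lowest in KO replicate 2 (-0.10 in log2, against -0.05 in WT replicate 1). Of these 12, 2 had WT replicate 1 and KO replicate 2 highest. The Sertoli sums above were also high in WT replicate 1, and after scaling to them the count was 1 of 10 against 4.98%. Clu made up most of these sums, at 537 and 413 FPKM across WT and 450 and 446 across KO, so this scaling was mainly to 1 gene. WT replicate 1 was then above WT replicate 2 in 3 of 10 genes and KO replicate 2 above KO replicate 1 in 9 of 10. The part of cell composition in these library differences was not tested.

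**Figure D3:**
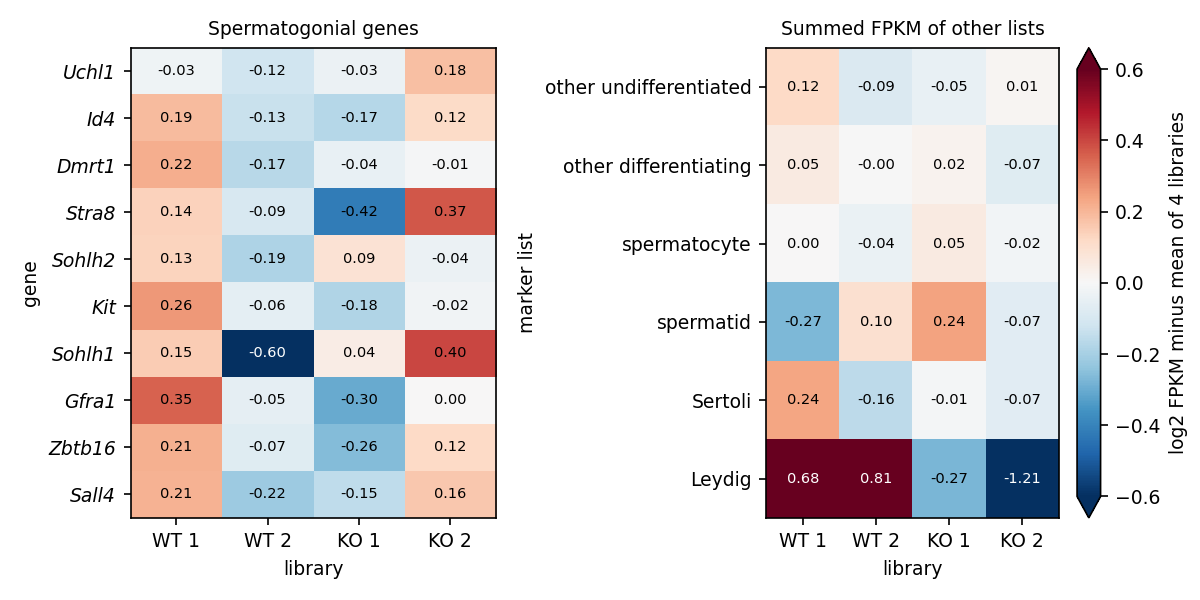
Heat map of log2 FPKM minus the mean of the 4 libraries, for the 10 spermatogonial genes (left) and for the summed FPKM of other gene lists (right), with red above and blue below the mean and colours capped at 0.6. WT replicate 1 and KO replicate 2 are the redder columns on the left, with Stra8 at -0.42 and 0.37 in the KO libraries. KO replicate 2 lies close to the mean for Sohlh2 (-0.04), Kit (-0.02), Dmrt1 (-0.01) and Gfra1 (0.00), as does WT replicate 1 for Uchl1 (-0.03). The spermatid sum, mostly Prm1, Prm2, Tnp1 and Tnp2, is lowest in WT replicate 1 at -0.27.

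Lists of related genes are given next. Limma called 0.114% of all tested genes, and 2.02% had an unadjusted p under 0.05. A count of 0 calls in a list this short is therefore the usual outcome and says little about its genes. Of 30 other genes of undifferentiated spermatogonia, 17 were tested, their median was 0.00 in log2, and limma called 0 in either direction (0 at an unadjusted p under 0.05). Lin28a, an RNA-binding protein of progenitors, was at 1.05 and 0.881 FPKM across WT, compared with 1.10 and 1.47 across KO (0.21 in log2, with an adjusted p of 1 in limma). Mcam, an adhesion molecule, had a log2 fold change of 0.17, Cd9, a surface tetraspanin, -0.21 and Itgb1, an integrin chain, -0.10 (limma adjusted p = 1 for each). The remaining 13 were under 1 FPKM on average. Among them were the stem cell factors Nanos2, listed at 0 in 3 libraries and at 0.0387 FPKM in WT replicate 1, and Pax7, listed at 0 in WT replicate 2 and KO replicate 1.

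Genes of differentiating spermatogonia and meiotic entry other than the 5 above numbered 20 in the tables and 16 tested. Limma called 0 of them, 0 at an unadjusted p under 0.05, and their median log2 fold change was -0.05. Sox4, a transcription factor, had 2.48 and 1.85 FPKM across WT, compared with 2.52 and 2.63 across KO (log2 fold change 0.19), and Dnmt3b, a DNA methyltransferase, a log2 fold change of 0.04. Rec8, the meiotic cohesin subunit, stood at 47.5 and 36.8 FPKM across WT, compared with 38.5 and 38.0 across KO (log2 fold change -0.13), and the cyclin gene Ccnd1 had -0.16 (limma adjusted p = 1 for the 4 genes). Tcf3 and Tcf12, which encode general partners of basic helix-loop-helix factors, were between 3.11 and 4.94 FPKM in all libraries.

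Ligands and receptors of the niche included the genes that act with Gfra1 and Kit. Kitl, the ligand of KIT, was at 3.54 and 2.90 FPKM across WT, compared with 3.29 and 3.13 across KO, a log2 fold change of 0.00. Gdnf was at 0.267 and 0.152 FPKM across WT, compared with 0.292 and 0.266 across KO, and Ret at 0.241 and 0.151 for the WT pair and 0.290 and 0.218 for the KO pair, so both lay under the minimum and were not tested. Of 23 such genes 12 were tested and limma called 0, with a median of -0.05. At an unadjusted p under 0.05 there was 1, Cxcl12, a chemokine that acts on spermatogonia through CXCR4. It was at 4.65 and 5.03 FPKM across WT, compared with 4.09 and 2.23 across KO (-0.53 in log2 by limma, SE 0.21, adjusted p = 1). The GDNF-family co-receptors Gfra2 and Gfra4 had log2 fold changes of 0.21 and 0.21, and the ligand gene Nrtn -0.22 (limma adjusted p = 1 for each).

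Retinoic acid genes, which act upstream of Stra8 and Kit, numbered 22, of which 16 were tested, limma called 0 and the median change was 0.00 in log2. The 1 gene at an unadjusted p under 0.05 was Aldh1a1, a retinaldehyde dehydrogenase found in Sertoli and Leydig cells. It was at 87.4 and 61.8 FPKM across WT, compared with 58.4 and 42.3 across KO, with both KO libraries below both WT libraries (-0.56 in log2 by limma, SE 0.19, adjusted p = 1). The Leydig sum without Insl3 was lowest in KO replicate 2, where Aldh1a1 was also lowest, but KO replicate 1 lay between the WT libraries in that sum. The part of Leydig cells in the Aldh1a1 value was not tested. Aldh1a2, the germ cell enzyme of the same step, was at 43.4 and 42.9 FPKM across WT, compared with 44.0 and 43.2 across KO. Crabp1, which binds retinoic acid in the cell, had a log2 fold change of 0.29 and the reductase gene Dhrs3 one of 0.17 (limma adjusted p = 1 for each). Rarg, the receptor of spermatogonia, was at 1.72 and 1.78 FPKM across WT, compared with 1.40 and 1.47 across KO (-0.18 in log2, with an adjusted p of 1 in limma).

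**Figure D4:**
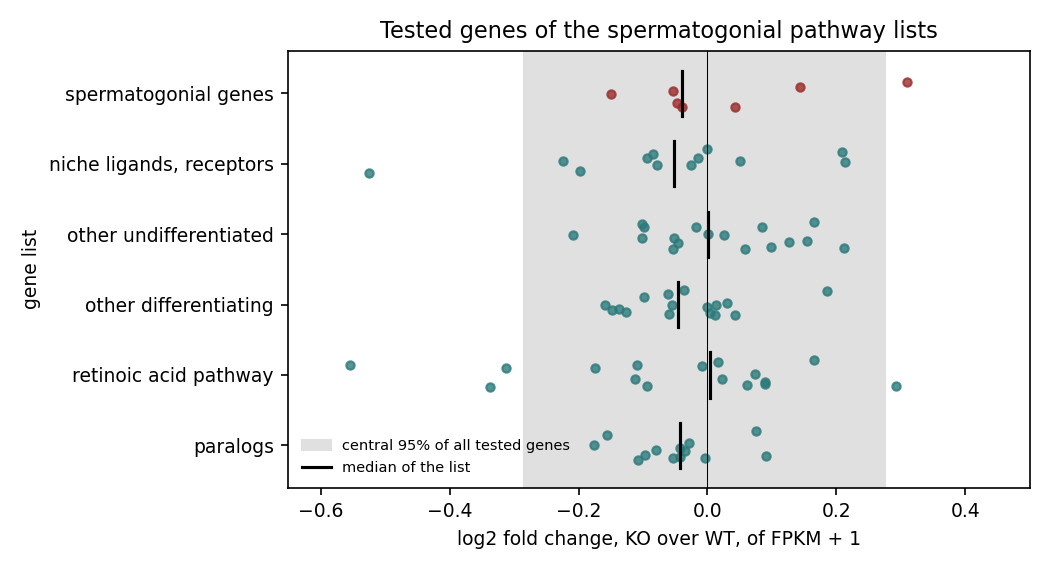
Log2 fold change of FPKM + 1, KO over WT, of each tested gene in the spermatogonial set and in 5 related lists, with black bars for the medians and a grey band for the central 95% of all 12258 tested genes. The medians lie between -0.05 and 0.00, and Aldh1a1 at -0.56 and Cxcl12 at -0.53 lie farthest from 0.

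Relatives of the 10 genes formed another short list, to be read against the 0.114% of all tested genes that limma called. Of 18 paralogs 13 were tested and limma called 0 (0 at an unadjusted p under 0.05), with a median of -0.04. The inhibitors Id1, Id2 and Id3 were lower than Id4 in every library, between 1.12 and 4.87 FPKM. Uchl3 was higher than Uchl1 in every library, at 82.5 and 78.1 FPKM across WT, compared with 91.9 and 78.1 across KO. Zbtb32, a related zinc finger repressor, and Uchl3 had log2 fold changes of 0.09 and 0.08, and Sall3 and Id3 -0.18 and -0.16 (limma adjusted p = 1 for each).

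Markers of all germ cells and of later stages are given for comparison. Of the pan germ cell genes 8 were tested (median -0.04), of the spermatocyte markers 13 (median -0.01, sharing Piwil1 with the former) and of the spermatid markers 12 (median 0.01), and limma called 0 in each (0 at an unadjusted p under 0.05). Among pan germ cell genes, Dnd1 and Piwil1 had log2 changes of 0.25 and 0.11, and Dazl and the helicase gene Ddx4 of -0.09 and -0.12. Among spermatocyte markers, Piwil1 and the lactate dehydrogenase gene Ldhc had 0.11 and 0.09, and Spo11 and Hspa2 -0.24 and -0.12. The spermatid transition protein genes Tnp1 and Tnp2 had 0.38 and 0.24, and the tail genes Odf1 and Akap4 -0.24 and -0.04 (limma adjusted p = 1 for each gene of the 3 lists). Ddx4 was at 223 and 196 FPKM across WT, compared with 199 and 184 across KO. Of somatic lists, limma called 0 of 16 Sertoli, 0 of 7 peritubular myoid and endothelial and 0 of 6 macrophage and mast cell genes (0 at an unadjusted p under 0.05 in each), with medians of -0.05, -0.02 and -0.08. Amh and Shbg had log2 changes of 0.25 and 0.13 and Gata4 and Inha of -0.22 and -0.15 in Sertoli cells, Cnn1 and Cdh5 of 0.26 and 0.05 and Des and Tagln of -0.10 and -0.08 in the tubule wall and vessels, and Cd14 of 0.06 and Cd74 and Csf1r of -0.51 and -0.20 in the macrophage list (limma adjusted p = 1 for each). Aif1, of the same list, had 0.22 (limma adjusted p = 1), but at 328 to 416 FPKM it stood far above the other 5 tested genes of the list, at 0.665 to 13.6 FPKM, and cannot be read as a macrophage level. In the Leydig list, Insl3 fell by 2.06 in log2, with 1100 and 1140 FPKM across WT, compared with 379 and 189 across KO (limma adjusted p = 0.00507) and was the 1 call among 9 tested genes (2 at an unadjusted p under 0.05), with a list median of -0.29. Hsd3b6, a steroid dehydrogenase, had -1.84 (limma adjusted p = 0.203), and Hsd3b1 and Scarb1 had 0.15 and 0.01 (limma adjusted p = 1). Of 4 tested blood genes 2 fell, Hba-a1 and Beta-s (limma log2 fold changes -3.77 and -2.61, adjusted p = 3.82e-06 and 1.34e-05). The other 2 tested were Hbb-b2, with a limma log2 fold change of -1.29 (unadjusted p = 0.000178, adjusted p = 0.121), and Alas2, with -0.16 (limma adjusted p = 1). Hba-a2, a relative of Hba-a1 below the minimum, went the other way. It was at 0.00139 and 0.00136 FPKM across WT, compared with 0.00208 and 1.24 across KO. The Insl3 call ended in limma without WT replicate 1 or WT replicate 2 (adjusted p = 0.0847 and 0.0843), with median scaling or quantile normalization (0.0813 and 0.172), and with robust variance or no minimum (1 in both). With no minimum Hba-a1 and Beta-s also missed the threshold in limma (adjusted p = 0.0875 for each).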

How the data were processed

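RNA of 4 testis libraries (2 WT, 2 KO) was sequenced on the Illumina HiSeq X10, per the labels' protocols. The authors deposited FPKM per gene symbol, per the file headers. The build mm9 and the tools TopHat2 2.0.6, Cufflinks 2.0.2 and Cuffdiff are listed, with no role, per the submitters' processing notes. For annotation, strand setting and filters, details are not given in the sources used.

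FPKM of repeated symbols were summed. Log2(FPKM + 1) of symbols averaging at least 1 FPKM was compared in limma 3.58.1 (R 4.3.3), with an intensity trend and two-sided tests, and called at a Benjamini-Hochberg adjusted p under 0.05. There were 2 residual and 9.48 prior degrees of freedom. The scale of FPKM + 1 understates changes of low genes. The procedure was tested on simulated data.

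The genes and lists were chosen with earlier results of these data known. Named were all 10 genes and, from each list, called genes and up to 2 of smallest p in each direction, of which 1 is not reported here; others were chosen after their values were seen. Fragment numbers are rough, since the authors' annotation is unknown, and their errors cover counting only. Pseudocount, minimum, scaling, variance model, replicate block and left-out libraries were varied.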

Additional observations from a re-analysis of the deposited data

How the results depend on the processing

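Limma called 0 of the spermatogonial genes tested under each of the 16 alternatives, with an adjusted p of 1 for each of the 116 values. Gfra1, Zbtb16 and Sall4 were tested only with no minimum or a minimum mean of 0.1 FPKM. Kit and Sohlh1 were not tested with a minimum mean of 5 FPKM. With 0.114% of all tested genes called in the main fit, 0 calls is the usual outcome for so few genes. The number of calls over all genes, 14, was 2 with no minimum, 9 with a minimum mean of 0.1 or of 5 FPKM, 6 after median scaling or quantile normalization, 7 after total scaling, 8 with robust variance and 9 to 20 with 1 library left out. With the replicate number as a block it was 68, and 0 of the 7 tested spermatogonial genes were among them; the labels do not say what the number marks, and the deviations of same-numbered libraries correlated at -0.03 across genes. The median log2 fold change of the tested genes ran from -0.14 to 0.13 with 1 library left out, and was 0.13 without WT replicate 1. The ratio of stem to differentiation genes, KO minus WT, was 0.07 in log2 and -0.10 without Uchl1 and Dmrt1. The sign of 4 small differences depended on the library left out: the log2 fold change ran from -0.39 to 0.31 for Stra8, -0.092 to 0.18 for Sohlh2, -0.21 to 0.10 for Id4 and -0.22 to 0.13 for Dmrt1. It was 0.066 and 0.31 for Stra8 and 0.10 and 0.084 for Id4 without WT replicate 1 and KO replicate 1, -0.092 and -0.010 for Sohlh2 without WT replicate 2 and KO replicate 1, and 0.13 for Dmrt1 without WT replicate 1. The cause was not tested. Sall4, Zbtb16 and Gfra1 rested on about 41 to 109 fragments per library, and counting error and library spread were not separated.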
